A study of Rattus norvegicus with 51 samples.

Results

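The insulin-like growth factor (IGF) axis and the imprinted RNA H19 were followed in engineered tissues of neonatal rat ventricular myocytes, heart muscle cells isolated from newborn Sprague-Dawley rats. The members were the ligands Igf1 and Igf2, the receptors Igf1r and Igf2r, the binding proteins Igfbp2, Igfbp3, Igfbp4, Igfbp5 and Igfbp6, and H19. All 10 were on the array, among 18602 genes. They were selected on measured values of these arrays: the difference of H19 between 96 h and 0 h and that of Igfbp3 under stretch. H19 in the comparisons with the 0 h tissues, every member at 96 h against 0 h, and Igfbp3 under stretch are therefore given as descriptions, with no test.

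The 51 arrays came from 6 primary harvests. Cells were seeded on silicone membranes that carried either aligned lines of fibronectin (anisotropic tissues) or an even coat of it (isotropic tissues). The groups were anisotropic tissues stretched transversely, across the lines, anisotropic tissues stretched longitudinally, along them, and isotropic stretched tissues, beside anisotropic unstretched and isotropic unstretched tissues, each at 6 h, 24 h and 96 h with 3 arrays. A further 6 arrays, 1 per harvest, were isotropic unstretched tissues kept for 1 h (0 h). No tissue carried a genetic change. All tissues were cultured with 10% fetal bovine serum for the first 48 h and with 2% afterwards, stretched or not, so between 24 h and 96 h time in culture and the lower serum cannot be told apart. The age of the animals and the amplitude and rate of the cyclic stretch are not given in the sources used here.

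IGF1 and IGF2 are small secreted peptides related to insulin. Both signal through the tyrosine kinase receptor IGF1R, which drives growth and survival through PI3-kinase and AKT, while IGF2R, the mannose 6-phosphate receptor, takes IGF2 up for degradation. The IGF binding proteins hold the ligands outside the cell and are themselves cut by proteases such as PAPP-A. Igf2 and H19 are neighbouring imprinted genes, active on opposite parental copies in mammals, and are strong in the fetal heart.

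H19 and Igf2 each carry a microRNA, and the mature sequences are shown because both host transcripts were far lower after culture. They are from RefSeq (GRCr8), 5' to 3', on the minus strand of chromosome 1, with the seed (bases 2 to 8) in capitals. The miR-675 pair lies in H19 at chr1:207161800-207161821 (5p) and chr1:207161766-207161786 (3p). The miR-483 pair lies in Igf2 at chr1:207247903-207247924 (5p) and chr1:207247865-207247886 (3p). No 2 of the 4 share a seed.
rno-miR-675-5p: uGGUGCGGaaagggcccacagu
rno-miR-675-3p: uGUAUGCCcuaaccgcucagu
rno-miR-483-5p: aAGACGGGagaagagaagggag
rno-miR-483-3p: cACUCCUCcccucccgucuugu

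Values are log2 signals after robust multi-array averaging (RMA), where a difference of 1 is a doubling, and levels are compared between groups only, not between genes. Array medians lay between 5.31 and 5.43. The 10 cardiomyocyte markers all averaged above the median of all probe sets (5.37), with means of 9.47 to 13.08. Fibroblast markers were also above it, 10 of 10, and so were 10 of 12 macrophage markers (not Cd163 and Fcgr2b) and 6 of 7 endothelial markers (not Vwf). These are means over all 51 arrays. The endothelial list averaged 8.47 at 0 h, and 5.81 and 5.45 in isotropic unstretched tissues at 24 h and 96 h. In transversely stretched tissues it averaged 5.28 and 5.13 at those times, under the median of all probe sets. In such bulk RNA, fewer cells of a type and less RNA per cell cannot be told apart. Differences below are from a limma fit with a term for harvest, so they can depart slightly from the difference of plain means, and a call means an adjusted p under 0.05 over all genes.

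2 arrays stood apart from their labels. On a scale where the 24 h anisotropic unstretched mean is 0 and the 96 h one is 1, the array labelled 24 h isotropic stretched, replicate 1, lay at 0.902, and the other two of its group at 0.0672 and 0.0565. The array labelled 96 h isotropic unstretched, replicate 1, lay at 0.216, and the other two at 1.03 and 1.01. Both came from harvest 1. In the authors' deposited table, the 24 h isotropic stretched fold changes against 0 h equalled, for all 10 members and to within 3.3e-10, those obtained with these 2 arrays exchanged: H19 stood at -4.11 there, against -4.48 with the arrays as labelled, and Igf1 at -2.06 against -1.30. Labels were kept here, and the main results that rest on either array are also given with the pair exchanged or left out.

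H19 was the member with the widest range, 5.23 log2 units between its highest and lowest group means. In 0 h tissues its signal ranged from 10.99 to 11.56 with a median of 11.33. In isotropic unstretched tissues it was 9.81, 9.96 and 10.27 at 6 h, 7.61, 7.73 and 7.55 at 24 h, and 7.22, 6.39 and 6.47 at 96 h. No array of a later time reached the 0 h range, and the 7.22 belongs to the array that stood apart. Against 0 h the level was 2.58-fold lower at 6 h, 13-fold lower at 24 h and 25.8-fold lower at 96 h (log2 differences of -1.37, -3.70 and -4.69, each ± 0.19, SE). With the pair exchanged or left out the 96 h difference was -5.09 or -5.02. H19 has a second probe set, which gave -1.22, -3.59 and -5.19 (36.6-fold lower at 96 h) and followed the first across the 16 group means with r = 0.989.

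The anisotropic unstretched tissues, whose changes between later times did not choose the gene, showed H19 still falling after the first 6 h. Its signal was 9.68, 10.07 and 9.74 at 6 h, 7.59, 7.74 and 7.68 at 24 h, and 6.32, 6.70 and 6.47 at 96 h. The 3 times did not overlap. It fell 4.60-fold between 6 h and 24 h (-2.20 ± 0.22, adjusted p = 8.1e-09) and a further 2.35-fold between 24 h and 96 h (-1.23 ± 0.22, adjusted p = 0.00025). The second H19 probe set fell 5.22-fold and 4.41-fold in these steps (-2.38 and -2.14, each ± 0.38), so the size of the late fall differed between probe sets. Between 6 h and 24 h, 4 of the 10 members were called in these tissues, against 13.5% of all genes. Between 24 h and 96 h it was 5 of 10, against 14.3%, and over the whole span 6 of 10, against 29.8%.

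Igf2 fell with H19. It ranged from 9.84 to 10.27 at 0 h with a mean of 10.13 ± 0.16 (SD, n = 6). Isotropic unstretched tissues had 8.50, 8.87 and 8.87 at 6 h, 6.99, 6.96 and 6.83 at 24 h, and 6.83, 6.30 and 6.13 at 96 h. Every later array lay below every 0 h array. The decrease was 1.47 ± 0.12 on the log2 scale at 6 h (adjusted p = 7.7e-12) and 3.30 ± 0.12 at 24 h (adjusted p = 1.2e-21); at 96 h the described difference was -3.79 (-3.97 with the pair exchanged, -4.02 with it left out). In anisotropic unstretched tissues Igf2 dropped by 1.71 between 6 h and 24 h and by 0.83 between 24 h and 96 h (adjusted p = 4.8e-11 and 8.0e-05). Across the 16 group means H19 and Igf2 had r = 0.99, a description over groups that share harvests. The probe set for Mir483, the microRNA gene inside Igf2, had group means of 6.31 to 6.83 and no call in the 29 comparisons tested.

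**Figure D1:**
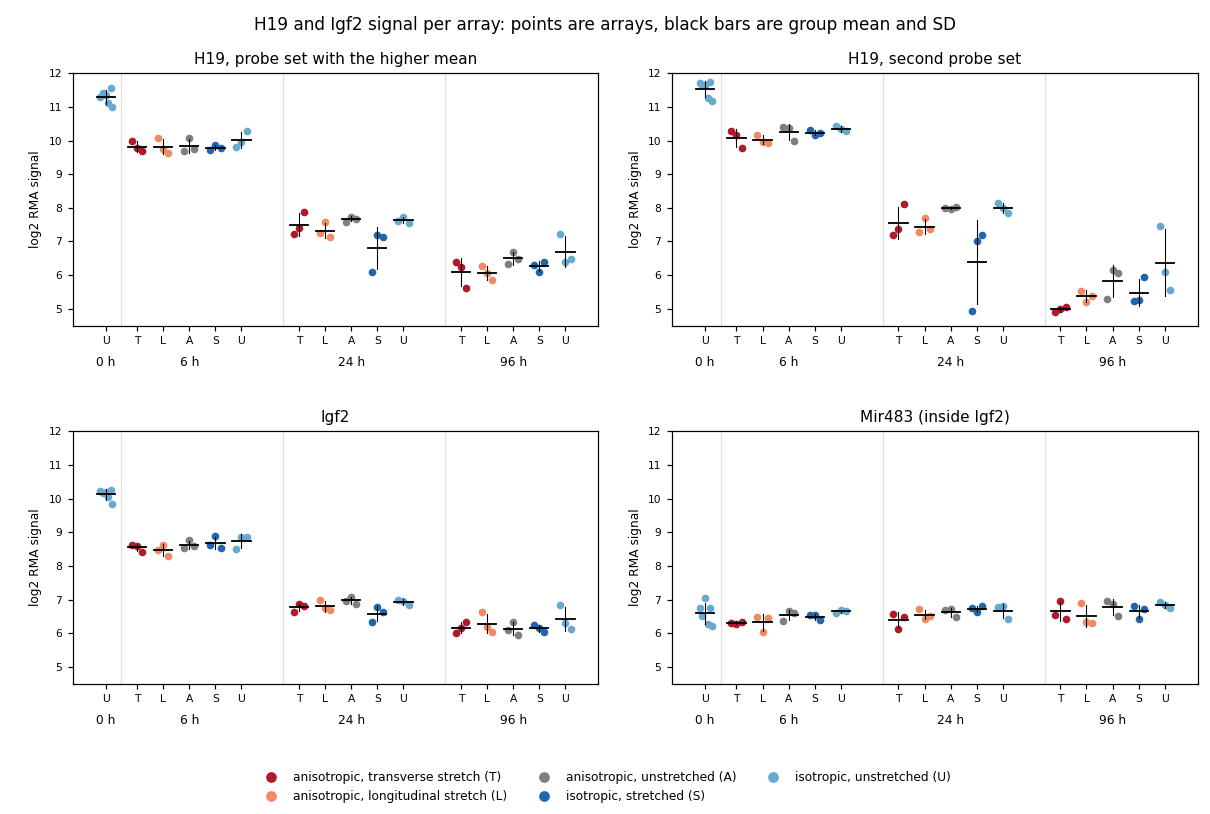
Log2 RMA signal (y axis) of H19 by each of its 2 probe sets, of Igf2 and of Mir483, for each of the 51 arrays by time and tissue (x axis); points are arrays, black bars the group mean and SD. H19 and Igf2 lie highest at 0 h and lower at 24 h than at 6 h in each tissue, and Mir483 stays between group means of 6.31 and 6.83.

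Endothelial markers were lower in the same comparisons. All 7 of 7 fell at 6 h, 24 h and 96 h in isotropic unstretched tissues against 0 h, with median log2 differences of -1.29, -2.96 and -3.26 (medians over all genes were -0.007, 0.021 and 0.044). The mean level of the list was 5.65 to 5.94 over the 24 h arrays and 8.15 to 8.72 over the 0 h arrays. Erythroid markers fell in 4 of 4 cases at 96 h (median -3.82). Of 10 cardiomyocyte markers 2, 8 and 6 fell at 6 h, 24 h and 96 h (medians -0.10, -0.37 and -0.30). At 96 h, 8 or 4 fell with the 2 arrays exchanged or left out. The share of all genes called lower was 12.5% at 6 h and 16.1% at 24 h, and 37.9% were called either way at 96 h. The part of these lists in the H19 and Igf2 results was not tested.

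Of the binding proteins, Igfbp3, Igfbp4 and Igfbp5 were also far below their 0 h level. With Igf1 and Igf2 they made 5 of 9 tested members lower at 6 h, where 12.5% of all genes were called lower (31.7% either way), and without Igf1 4 of 9 at 24 h, where 16.1% were lower (36.8% either way). None of the 9 was called higher at either time, against 19.1% and 20.8% of genes. At 96 h, where 37.9% of genes were called, the members were not tested.

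IGFBP3, the main carrier of IGFs in blood, had Igfbp3 signals of 8.36 to 9.09 at 0 h (median 8.76). Isotropic unstretched tissues had 7.54, 7.60 and 7.65 at 6 h and 6.57, 6.70 and 6.75 at 24 h. The groups were apart at each step, and the transcript was 2.33-fold lower at 6 h and 4.13-fold lower at 24 h (-1.22 ± 0.18, adjusted p = 1e-06, and -2.05 ± 0.18, adjusted p = 1.2e-11). Igfbp4, whose product restrains IGF action until PAPP-A cuts it, made its drop within 6 h. It ranged from 8.52 to 8.96 at 0 h, and isotropic unstretched tissues had 6.61, 6.81 and 6.99 at 6 h and 7.12, 7.18 and 6.82 at 24 h (-2.05 ± 0.14 and -1.72 ± 0.14, adjusted p = 8.5e-14 and 1.6e-12). In anisotropic unstretched tissues Igfbp4 was not called between any 2 later times, with differences of -0.08 to 0.29.

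Fibroblast markers were lower at the median in the same comparisons. Of 10 in isotropic unstretched tissues against 0 h, 8 fell at 6 h (median -1.10). At 24 h 4 fell and 1 rose (median -0.35). Their mean level was 8.80 to 8.96 over the 6 h arrays, 9.20 to 9.62 over the 24 h arrays and 9.48 to 10.18 over the 0 h arrays. At 6 h, 4 of 6 epicardium and mesothelium markers fell (median -0.31), and of 12 macrophage markers 4 fell and 1 rose (median -0.35). Lower calls made up 12.5% of all genes at 6 h and 16.1% at 24 h. The part of these lists in the fall of the binding proteins was not tested.

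Igfbp5, which encodes a matrix-bound IGF binding protein, fell, came back and fell again. It ranged from 9.03 to 9.65 at 0 h. Anisotropic unstretched tissues had 6.82, 7.21 and 7.05 at 6 h, 8.94, 8.71 and 8.89 at 24 h, and 5.91, 5.94 and 6.47 at 96 h. The 24 h arrays lay above all those of both neighbouring times. It rose 3.44-fold between 6 h and 24 h (1.78 ± 0.36, adjusted p = 0.00056) and then fell 6.84-fold between 24 h and 96 h (-2.77 ± 0.36, adjusted p = 4.2e-06). Transversely stretched tissues also had a rise between 6 h and 24 h (1.31 ± 0.37, adjusted p = 0.012, against 15.3% of genes called), which was lost without replicate 2 or 3 of the 24 h group (0.97 to 1.87 over single arrays left out). The same step was 0.40 ± 0.36 in longitudinally stretched tissues (adjusted p = 0.52) and -0.48 ± 0.36 in isotropic stretched ones (adjusted p = 0.37, and 0.04 with the 2 arrays exchanged).

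**Figure D2:**
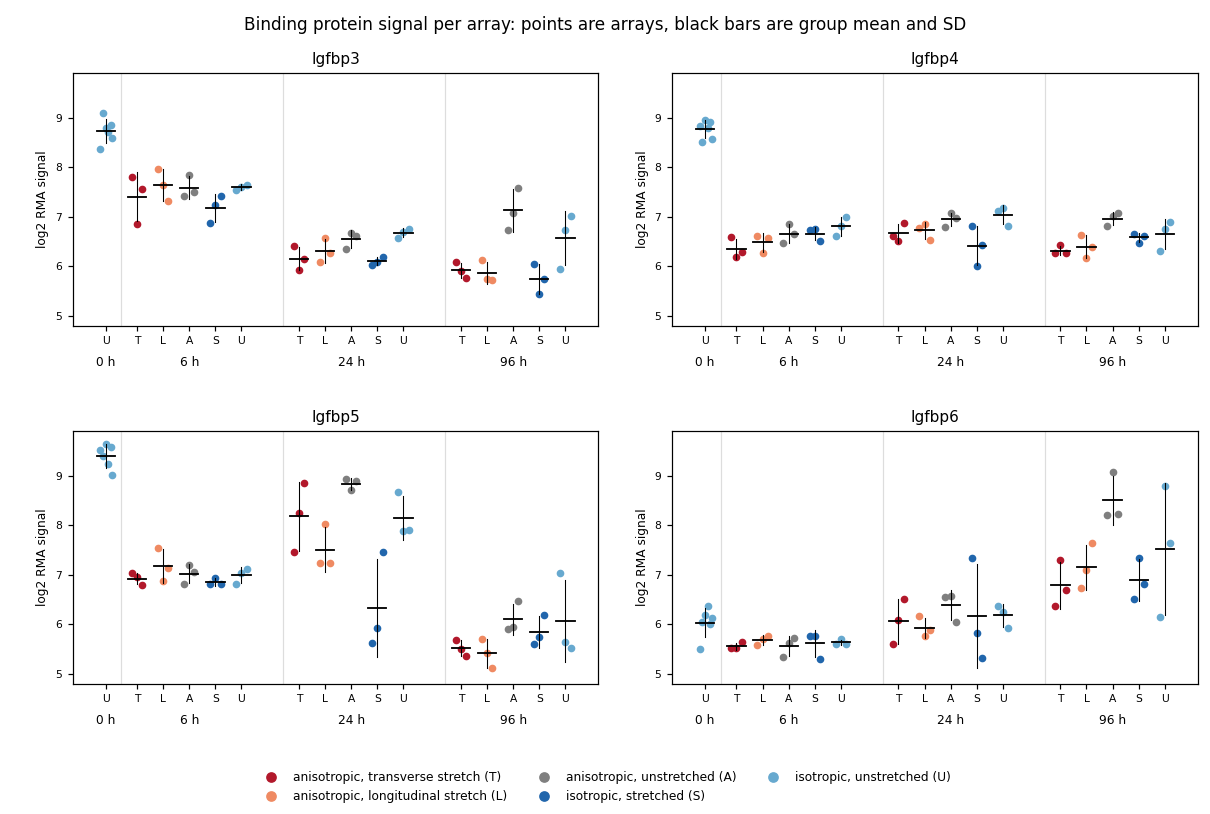
Log2 RMA signal (y axis) of Igfbp3, Igfbp4, Igfbp5 and Igfbp6 for each array by time and tissue (x axis); points are arrays, black bars the group mean and SD. Igfbp3 and Igfbp4 lie highest at 0 h, and Igfbp6 is highest at 96 h in anisotropic unstretched tissues at 8.21 to 9.08. Group means of Igfbp5 are higher at 24 h than at 6 h in all tissues but the isotropic stretched ones.

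Igf1 and Igfbp6 went the other way late in culture. IGFBP6 binds IGF2 in preference to IGF1. In anisotropic unstretched tissues Igf1 was 5.81, 6.25 and 5.85 at 6 h, 6.77, 6.46 and 6.37 at 24 h, and 8.27, 9.15 and 9.43 at 96 h. The 96 h arrays were all above every earlier one of that tissue and above the 0 h arrays, which ran between 6.89 and 7.44. Igf1 rose 4.53-fold between 24 h and 96 h (2.18 ± 0.53, adjusted p = 0.0051) and 7.56-fold between 6 h and 96 h (adjusted p = 8.8e-05). Igfbp6 was 5.34, 5.63 and 5.73 at 6 h, 6.55, 6.58 and 6.05 at 24 h, and 8.21, 9.08 and 8.23 at 96 h. It rose 4.17-fold between 24 h and 96 h (2.06 ± 0.37, adjusted p = 0.00024), again with no overlap. The 2 genes had r = 0.91 over the 16 group means.

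Early in culture Igf1 was lower than at 0 h. The 6 h isotropic unstretched arrays had 5.79, 6.21 and 5.90, a drop by 1.35 ± 0.47 (adjusted p = 0.025), which was not past the threshold without replicate 2 or 3 of the 6 h group (largest adjusted p = 0.14). In the 96 h isotropic unstretched group Igf1 was 5.37, 8.77 and 8.84, where 5.37 is the array that stood apart. Between 6 h and 96 h in anisotropic unstretched tissues, 7 of 10 fibroblast markers were higher (median 1.21) and 6 of 12 macrophage markers were higher (median 0.55). Either way, 29.8% of all genes were called over that span. The part of these lists in the rise of Igf1 and Igfbp6 was not tested.

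The receptors and Igfbp2 moved little. Igf1r had group means of 7.82 to 8.40 and Igf2r of 10.34 to 10.95. Igf1r was called only in the 96 h minus 6 h comparisons of longitudinally (0.46 ± 0.13, adjusted p = 0.0051) and transversely stretched tissues (0.32 ± 0.12, adjusted p = 0.044, lost on leaving out any 1 of 5 of the 6 arrays). Igf2r was higher in the same 2 comparisons, by 0.48 ± 0.12 and 0.53 ± 0.12 (adjusted p = 0.0036 and 0.00094), where 26.9% and 34.9% of genes were called. In unstretched anisotropic tissues neither receptor was called between any 2 times. Igfbp2 had group means of 4.61 to 4.85, all under the median of all probe sets, and no call in any comparison.

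Between 6 h and 24 h H19 and Igf2 were called lower in transversely, longitudinally and isotropic stretched tissues (15.3%, 14.1% and 17.1% of genes called). Between 6 h and 96 h these 2 and Igfbp5 were called lower in each of them (34.9%, 26.9% and 31.6% called), and Igfbp6 was called higher in each, by 1.18, 1.25 and 1.28. In isotropic stretched tissues the Igfbp5 call (-1.01) was lost on leaving out any 1 of 4 of the 6 arrays. The Igfbp6 call was lost without 1 of the 6 arrays in transversely and in longitudinally stretched tissues. Igf1 was called higher over that span in isotropic stretched tissues (1.54 ± 0.52, adjusted p = 0.022, lost on leaving out any 1 of 3 of the 6 arrays). It was 0.71 ± 0.55 in transversely stretched (adjusted p = 0.33) and 1.44 ± 0.56 in longitudinally stretched tissues (adjusted p = 0.051). Between 24 h and 96 h 4 of 10 members were called in transversely stretched tissues (15.7% of genes), 4 in longitudinally stretched ones (10.7%) and 0 in isotropic stretched ones (5.60%). Of the longitudinal calls, Igfbp6 was lost on leaving out any 1 of the 6 arrays and Igf2r on leaving out any 1 of 5. The transverse call of Igf2r was lost on leaving out any 1 of 4 of the 6 arrays. In isotropic stretched tissues, the exchange of the 2 arrays gave 2 higher and 3 lower, with 20.0% of genes called. Igfbp3 is counted here, but its values in stretched tissues chose it, so its calls there are a description.

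**Figure D3:**
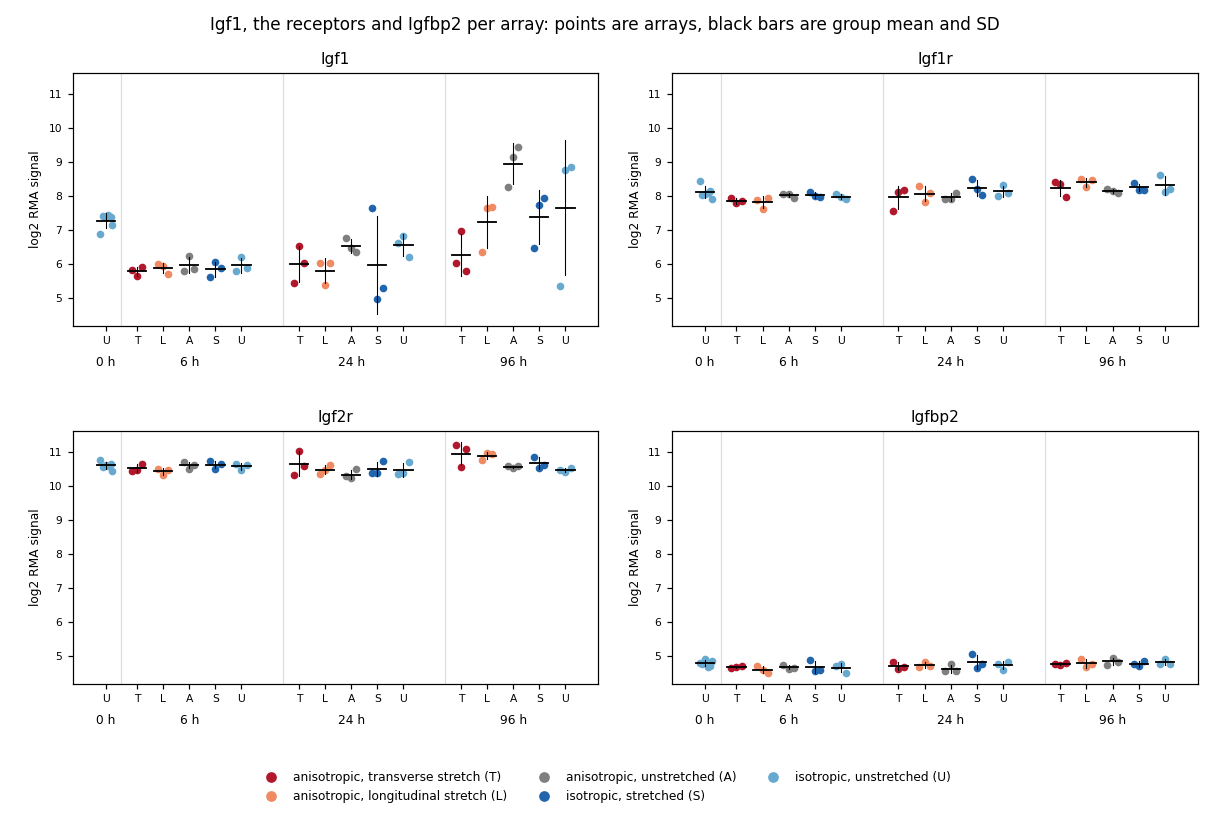
Log2 RMA signal (y axis) of Igf1, Igf1r, Igf2r and Igfbp2 for each array by time and tissue (x axis); points are arrays, black bars the group mean and SD. Igf1 spreads from 4.98 to 9.43 while Igf1r, Igf2r and Igfbp2 keep group means within 0.58, 0.61 and 0.24 of one another.

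The 250 bases before the annotated start are shown for 2 genes that rose late, for Igfbp3 and for Igf2r. Igf2r was taken as a member with a narrow range of group means (0.61), although it was called in some comparisons. The windows are from RefSeq (GRCr8), which matched 9 of the 10 members with 10 windows, Igf2 having 2. They lie at chr7:24172282-24172531 (Igf1, plus strand), chr7:135154669-135154918 (Igfbp6, plus strand), chr14:86277945-86278194 (Igfbp3, minus strand) and chr1:50526628-50526877 (Igf2r, plus strand). Capitals mark matches to 6 motifs searched on both strands: TEAD GGAATG, AP-1 TGANTCA, FOXO GTAAACA, E-box CACGTG, SP GGGCGG and TATA box TATAAA.
Igf1: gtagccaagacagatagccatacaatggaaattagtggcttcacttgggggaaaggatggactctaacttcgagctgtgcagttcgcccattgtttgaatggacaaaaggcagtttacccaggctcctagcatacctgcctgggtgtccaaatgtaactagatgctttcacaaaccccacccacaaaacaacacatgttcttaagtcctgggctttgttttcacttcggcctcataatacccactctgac
Igfbp6: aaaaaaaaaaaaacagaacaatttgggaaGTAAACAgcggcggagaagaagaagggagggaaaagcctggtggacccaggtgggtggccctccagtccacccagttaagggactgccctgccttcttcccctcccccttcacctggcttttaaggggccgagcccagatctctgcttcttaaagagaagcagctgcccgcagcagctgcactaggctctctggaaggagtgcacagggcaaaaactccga
Igfbp3: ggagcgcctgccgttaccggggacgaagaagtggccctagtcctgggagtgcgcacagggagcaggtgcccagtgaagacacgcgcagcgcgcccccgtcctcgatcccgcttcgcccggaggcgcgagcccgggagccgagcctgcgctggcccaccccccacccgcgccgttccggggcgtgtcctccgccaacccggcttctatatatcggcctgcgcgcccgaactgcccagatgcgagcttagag
Igf2r: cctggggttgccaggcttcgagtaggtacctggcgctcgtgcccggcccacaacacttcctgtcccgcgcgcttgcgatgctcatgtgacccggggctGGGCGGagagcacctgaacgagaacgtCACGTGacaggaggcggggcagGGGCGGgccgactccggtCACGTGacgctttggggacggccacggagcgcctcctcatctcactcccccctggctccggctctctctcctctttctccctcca
The Igf2r window held 2 E-box and 2 SP matches, and the windows of Igf1r and Igfbp2 held 1 of each. CACGTG was in 3 of the 10 member windows and in 5.59% of all 33469 windows. Whether a motif goes with the range of a member was not tested. GGGCGG was in 4 of the 10 and in 30.5% of all windows. The Igfbp6 window held the single FOXO match (3.21% of all windows), and those of Igf1, Igfbp3 and Igfbp5 held none of the 6. TEAD and TATA box letters were in 1 member window each (12.1% and 12.9% of all) and AP-1 letters in none (6.34%). No binding was measured, and a match is a description of letters.

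Stretch gave no call among the members at 6 h, calls for Igfbp5, Igfbp4 and H19 at 24 h, and calls for Igf1, Igfbp6, Igfbp4 and Igf2r at 96 h. Of 81 tests of 9 members in 9 comparisons, 8 were called lower and 1 higher. Of all genes, 1.46%, 2.23% and 3.93% were called at 24 h in transversely stretched, longitudinally stretched and isotropic stretched tissues. At 96 h these shares were 15.0%, 9.70% and 2.94%. The H19 call was lost with the pair of arrays that stood apart exchanged (-0.44) or left out (-0.46). The number of stretch calls among the members was higher with that pair exchanged or left out. At 6 h none of 9 was called in transversely stretched, longitudinally stretched or isotropic stretched tissues, against 0%, 0.0968% and 0.00538% of genes. The longitudinal and transverse comparisons share the same unstretched arrays, so their values stand side by side and are not independent.

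At 24 h Igfbp5 was lower in isotropic stretched tissues. Isotropic stretched tissues had 5.63, 5.92 and 7.47, against 8.67, 7.88 and 7.91 in isotropic unstretched tissues. All 3 stretched arrays lay under all 3 unstretched ones, and Igfbp5 was lower in each of the 3 shared harvests. It fell 3.52-fold (-1.81 ± 0.35, adjusted p = 0.0014, with 3.93% of genes called and 2.95% called lower), and by 1.35 with the 2 arrays exchanged (adjusted p = 0.0013, with 8.13% of genes called); with only the arrays of 24 h and 0 h in the fit the adjusted p was 0.065. Longitudinally stretched tissues had 7.25, 8.03 and 7.25, against 8.94, 8.71 and 8.89 in anisotropic unstretched tissues (-1.29 ± 0.36, adjusted p = 0.046, with 2.23% of genes called and 1.44% called lower). That call was lost on leaving out any 1 of 5 of the 6 arrays, with values of -1.56 to -1.16. Transversely stretched tissues had 7.46, 8.25 and 8.85 (-0.65 ± 0.38, adjusted p = 0.48), and none of the 9 members was called there, against 1.46% of genes.

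2 other members fell in isotropic stretched tissues at 24 h. Igfbp4 was 6.81, 6.01 and 6.43, against 7.12, 7.18 and 6.82 in isotropic unstretched tissues (-0.62 ± 0.15, adjusted p = 0.012). The highest stretched array, 6.81, lay just under the lowest unstretched one, 6.82. With the 2 arrays exchanged Igfbp4 stood at -0.79 (adjusted p = 8.3e-05), and the call was lost without unstretched replicate 1 or 2 or stretched replicate 2 (-0.83 to -0.35). H19 was 6.09, 7.20 and 7.13, against 7.61, 7.73 and 7.55 (-0.82 ± 0.22, adjusted p = 0.022). The 6.09 is the array that stood apart, and with the pair exchanged or left out H19 stood at -0.44 (adjusted p = 0.050) and -0.46 (adjusted p = 0.098). The call was also lost without any 1 of the 3 unstretched arrays. As labelled, the second H19 probe set was called lower here too (-1.60 ± 0.37, adjusted p = 0.011 over all probe sets). Its stretched arrays ran from 4.94 to 7.20 with a median of 7.02, and its unstretched ones from 7.85 to 8.15. Igf1 was 7.64, 4.98 and 5.31, against 6.63, 6.83 and 6.21. As labelled these groups overlap (-0.58 ± 0.52, adjusted p = 0.65), while without stretched replicate 1, the array at 7.64, the difference was -1.61 (adjusted p = 0.033), and with the pair exchanged -1.34 ± 0.26 (adjusted p = 0.00099).

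Fibroblast markers were lower beside Igfbp5 at 24 h. In isotropic stretched tissues 5 of 10 fell (median -0.79). When the 2 arrays were exchanged 6 fell (median -1.26), and when they were left out 7 (median -1.41). In longitudinally stretched tissues 3 of 10 fell (median -0.58) and in transversely stretched ones 2 of 10 (median -0.59). The shares of all genes called either way were 3.93%, 2.23% and 1.46% in isotropic, longitudinal and transverse stretch. The mean level of the list was 8.03 to 9.67 in isotropic stretched and 9.20 to 9.62 in isotropic unstretched arrays. It was 8.79 to 9.13 in longitudinally stretched and 9.39 to 9.51 in anisotropic unstretched arrays. Its part in the Igfbp5 result was not tested.

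**Figure D4:**
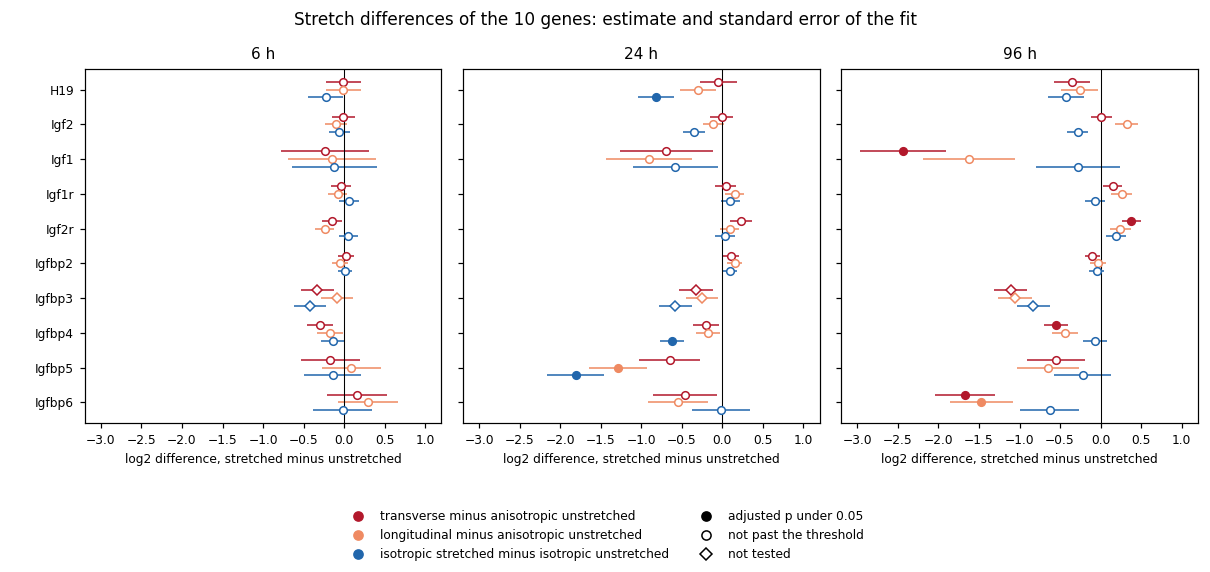
Harvest-adjusted log2 difference, stretched minus unstretched (x axis), with its SE, for each of the 10 members (y axis) in 9 stretch comparisons; filled points have an adjusted p under 0.05, open circles do not, and diamonds (Igfbp3) were not tested. As labelled, the widest falls are Igf1 at -2.44 and Igfbp6 at -1.67 in transversely stretched tissues at 96 h and Igfbp5 at -1.81 in isotropic stretched tissues at 24 h.

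At 96 h Igf1 and Igfbp6, the members that rose late in unstretched tissues, were lower under transverse stretch. Igf1 was 6.04, 6.98 and 5.80 in transversely stretched tissues, against 8.27, 9.15 and 9.43 in anisotropic unstretched tissues. The highest stretched array lay more than 1 log2 unit under the lowest unstretched one. Igf1 was 5.43-fold lower (-2.44 ± 0.53, adjusted p = 0.0014), with differences of -2.23 and -2.17 within the 2 harvests that held both groups. Igfbp6 was 6.37, 7.30 and 6.69, against 8.21, 9.08 and 8.23 (3.17-fold lower, -1.67 ± 0.37, adjusted p = 0.0015), again without overlap. Over 17 alternative settings, these were the only stretch calls among the members that none removed, with Igf1 at -2.68 to -2.29 and Igfbp6 at -1.77 to -1.49.

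2 further members were called in transversely stretched tissues at 96 h, which makes 4 of 9, with 15.0% of all genes called, 8.65% lower and 6.39% higher. Igfbp4 was 6.27, 6.42 and 6.26, against 6.81, 7.01 and 7.07 in anisotropic unstretched tissues (-0.55 ± 0.15, adjusted p = 0.012; lost without unstretched replicate 2 or transverse replicate 1, at -0.61 to -0.51 over single arrays left out). Igf2r was the 1 member called higher, with 11.21, 10.57 and 11.08 against 10.58, 10.53 and 10.59 (0.38 ± 0.12, adjusted p = 0.025). These 2 groups overlap, since the transverse array at 10.57 lies inside the unstretched range. The Igf2r call was lost on leaving out any 1 of 4 of the 6 arrays, with values of 0.26 to 0.54.

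Under longitudinal stretch at 96 h Igfbp6 was the 1 of 9 members called, with 9.70% of all genes called and 5.39% called lower. It was 6.73, 7.09 and 7.64, against 8.21, 9.08 and 8.23 in anisotropic unstretched tissues (2.77-fold lower, -1.47 ± 0.39, adjusted p = 0.012; adjusted p = 0.058 without unstretched replicate 2 and without longitudinal replicate 1). Igf1 was 6.36, 7.66 and 7.69, against 8.27, 9.15 and 9.43. The groups did not overlap, but the difference of -1.62 ± 0.57 had an adjusted p of 0.066. It was -1.68 (adjusted p = 7.2e-05) with the 2 arrays exchanged and -1.69 (adjusted p = 4.5e-05) with them left out. Neither array belongs to these groups, but all groups share an estimate of the spread in the fit. The labels of these 2 arrays therefore enter the adjusted p of other groups too. The fits with the pair exchanged and left out each called 1 member higher and 3 lower, with 14.0% and 14.8% of genes called. The direction of stretch itself, transverse minus longitudinal, gave no call in 30 tests, against 0.0215%, 0% and 0% of genes at 6 h, 24 h and 96 h. Among these the results of Igfbp3 are a description, since its values in stretched tissues chose it. The interval of the Igf1 difference at 96 h ran from -1.96 to 0.33, and that of Igfbp6 from -0.98 to 0.59, so likeness of the 2 directions was not shown.

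Isotropic stretched tissues at 96 h had no call among 9 members, with 2.94% of genes called. H19 was among the 9, and its choice used the unstretched arrays of this comparison. Igf1 was 6.48, 7.74 and 7.94, against 5.37, 8.77 and 8.84 in isotropic unstretched tissues (-0.28 ± 0.52, adjusted p = 0.88). Within harvests 2 and 3 the difference was -1.04 and -0.90, and within harvest 1, which holds the array that stood apart, it was 1.11 higher. Igfbp6 was 6.52, 7.35 and 6.81, against 6.14, 8.79 and 7.65 (-0.63 ± 0.36, adjusted p = 0.45). With the pair of arrays exchanged, Igf1 stood at -1.03 ± 0.26 (adjusted p = 0.010) and Igfbp6 at -1.03 ± 0.21 (adjusted p = 0.0015). With both left out they stood at -1.24 and -1.26 (adjusted p = 0.0057 and 0.00014). The share of all genes called was 7.97% with the exchange and 5.98% without the 2 arrays.

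**Figure D5:**
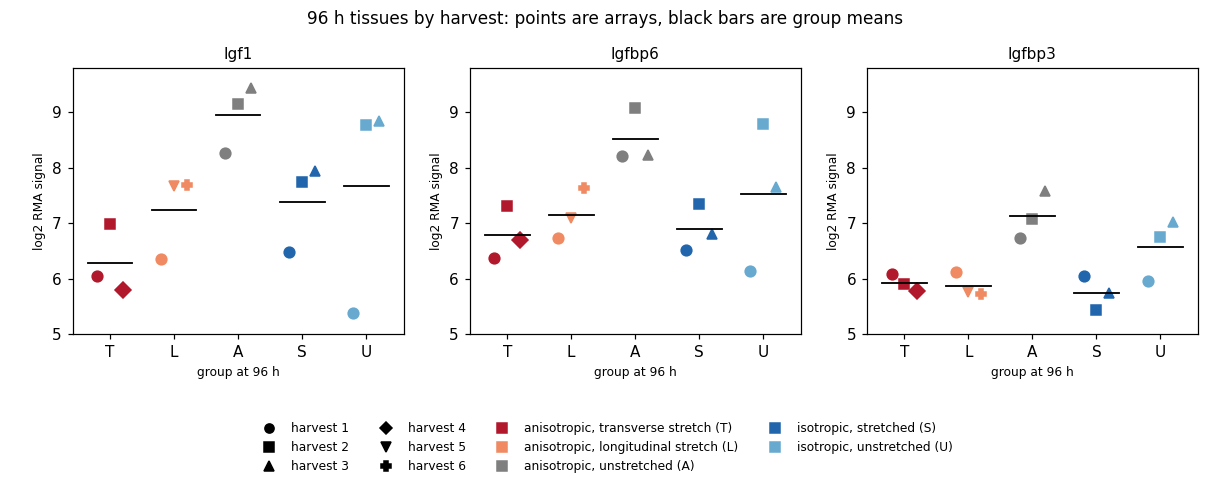
Log2 RMA signal (y axis) of Igf1, Igfbp6 and Igfbp3 in the 5 groups at 96 h (x axis), with the symbol giving the harvest and the black bar the group mean. In anisotropic tissues all stretched arrays lie below all unstretched ones for the 3 genes, and in the isotropic unstretched group the harvest 1 array lies at 5.37 for Igf1 and 6.14 for Igfbp6, below the other two.

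Igfbp3, chosen for its fall under stretch, was lower at 96 h in all 3 stretched tissues. It was 6.08, 5.90 and 5.77 in transversely stretched and 6.12, 5.75 and 5.72 in longitudinally stretched tissues, against 6.73, 7.07 and 7.58 in anisotropic unstretched ones. It was 6.04, 5.44 and 5.74 in isotropic stretched tissues, against 5.95, 6.74 and 7.02 in isotropic unstretched ones. Only this last pair of groups overlaps, at the harvest 1 array of 5.95. The differences were -1.11 ± 0.20, -1.05 ± 0.21 and -0.83 ± 0.20, the last -0.85 with the pair exchanged and -1.06 with it left out. At 24 h they were -0.33, -0.25 and -0.58, and at 6 h -0.33, -0.09 and -0.42, in the same order of tissues. At 24 h the isotropic groups were apart, with 6.02, 6.09 and 6.18 in stretched and 6.57, 6.70 and 6.75 in unstretched tissues.

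Macrophage and fibroblast markers were lower in the same 96 h comparisons. Of 12 macrophage markers 10 fell under transverse stretch (median -1.40), 10 under longitudinal stretch (median -1.17) and 6 in isotropic tissues (median -0.90; 9 with -0.93 both with the pair exchanged and with it left out). Their mean level was 5.28 to 5.70 in transversely stretched, 5.12 to 5.78 in longitudinally stretched and 7.02 to 7.20 in anisotropic unstretched arrays. Of 10 fibroblast markers 5 fell under each direction of stretch (medians -1.56 transverse and -1.36 longitudinal). Their mean level was 8.42 to 8.87 in transversely stretched, 8.88 to 9.10 in longitudinally stretched and 10.26 to 10.65 in anisotropic unstretched arrays. The cardiomyocyte list had medians of 0.07 and 0.06 in the same comparisons, with 2 of 10 lower and 1 higher in each. Under transverse stretch 8.65% of all genes were called lower and 6.39% higher. Under longitudinal stretch 5.39% were called lower, and in isotropic stretch 2.94% were called either way. The part of these lists in the Igf1, Igfbp6 and Igfbp3 results was not tested.

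Layout alone gave no call for a member. Among 30 tests of anisotropic minus isotropic unstretched tissues none passed, with 0%, 0% and 0.0161% of genes called at 6 h, 24 h and 96 h. H19 and Igfbp3 were chosen on values that used some of these arrays, so their results here are a description. At 96 h Igf1 was 1.29 ± 0.52 higher in anisotropic tissues as labelled (adjusted p = 0.36; 0.53 with the 2 arrays exchanged and 0.33 with both left out). Igfbp6 was 0.98 ± 0.36 higher (adjusted p = 0.31; 1.52 with adjusted p = 0.028 without isotropic unstretched replicate 2). With the 2 arrays exchanged it stood at 0.58 (adjusted p = 0.36) and with both left out at 0.35 (adjusted p = 1). Tests of whether the stretch response differed with layout or over time called no member either, while 0.0269%, 0% and 0% of genes differed with layout at 6 h, 24 h and 96 h and 0.344%, 1.75% and 2.83% over time in isotropic, longitudinal and transverse stretch. The lowest adjusted p among members was 0.097, for Igfbp6 over time in transverse stretch. With the 2 arrays exchanged it was 0.00039, and that for Igf1 was 0.0003, against 0.19 as labelled, while the share of all genes was 6.37%.

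Other genes of the pathway were read from a list of 41, of which 40 were on the array (not Pappa2). In culture, 7, 6 and 8 were higher and 10, 15 and 14 lower than at 0 h at 6 h, 24 h and 96 h, where 31.7%, 36.8% and 37.9% of all genes were called (9 higher and 17 lower at 96 h with the 2 arrays exchanged). Foxo1, a transcription factor that AKT keeps out of the nucleus, fell at the 3 times (log2 differences of -0.98, -1.77 and -2.16, adjusted p = 1.1e-06, 2.3e-12 and 1.7e-14). Htra1, a secreted protease that can cut IGF binding proteins, rose by 1.14, 1.89 and 1.95 (adjusted p = 4.5e-05, 3.9e-09 and 2.3e-09). Pappa, which cuts IGFBP4, rose by 1.38 at 24 h (adjusted p = 5.6e-07). Socs2, an inhibitor of growth hormone signalling, fell by 1.30 at 96 h (adjusted p = 7.6e-08).

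Under stretch none of the 40 was called at 6 h. At 24 h, 3 were higher and 0 lower in transverse stretch, 3 and 1 in longitudinal and 1 and 1 in isotropic stretch, where 1.46%, 2.23% and 3.93% of all genes were called. At 96 h these counts were 8 and 5, 4 and 2, and 3 and 0, where 15.0%, 9.70% and 2.94% were called, with list medians of 0.02, 0.05 and 0.02 beside medians over all genes of 0.020, 0.008 and -0.007. In isotropic stretch, exchanging the 2 arrays gave 5 higher and 5 lower at 24 h and 6 and 2 at 96 h, and leaving them out 4 and 4 at 24 h and 4 and 2 at 96 h. Pik3ca, the catalytic p110-alpha subunit of PI3-kinase, was higher in all 6 comparisons, by 0.48, 0.51 and 0.47 at 24 h and by 0.95, 1.00 and 0.70 at 96 h in transverse, longitudinal and isotropic stretch (adjusted p between 3.7e-07 and 0.028). Stc2, an inhibitor of PAPP-A, fell in transverse and longitudinal stretch at 96 h (-1.21 and -1.52, adjusted p = 2e-04 and 4.9e-05), while its relative Stc1 rose by 1.08 in transverse stretch (adjusted p = 0.013). Pappa itself rose by 1.34 ± 0.22 in isotropic stretch at 96 h (adjusted p = 0.00035; 0.94 with the pair exchanged and 1.07 with it left out). Ghr, the growth hormone receptor, fell by 0.82 in longitudinal stretch (adjusted p = 0.0081). Pik3r1, the regulatory subunit of PI3-kinase, fell by 0.79 in isotropic stretch at 24 h (adjusted p = 0.0040).

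Imprinted genes beyond the members were read in the same way. Of 19 on the array 11, 9 and 11 were below 0 h at 6 h, 24 h and 96 h and 1, 2 and 2 above it, with medians of -0.34, -0.21 and -0.44. Of all genes 12.5% and 16.1% were called lower at 6 h and 24 h, and 37.9% were called either way at 96 h. At 96 h, 12 and 3 were lower and higher with the 2 arrays exchanged, and 8 and 2 with them left out. Cdkn1c, a cell cycle inhibitor, fell at the 3 times (-0.65, -0.88 and -1.17, adjusted p = 0.00022, 1.7e-06 and 8e-09). Plagl1, a zinc finger transcription factor, fell by 1.55 at 96 h (adjusted p = 4.2e-10), and at 24 h it fell under isotropic stretch (-1.52, adjusted p = 1.1e-06) and longitudinal stretch (-0.94, adjusted p = 0.0021). Dcn, which encodes the matrix proteoglycan decorin and is also in the fibroblast list, fell in transverse and longitudinal stretch at 96 h (-3.03 and -2.66, adjusted p = 7.5e-08 and 3.7e-06).

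Among 859 genes whose group means varied with an SD of at least 0.5, those most like H19 over the 16 groups were Cmbl (r = 0.99), Igf2 (0.99), Crygd (0.986) and Cxcl10 (0.985). Cxcl10, an interferon-induced chemokine, averaged 4.85 in 96 h anisotropic unstretched tissues and 7.64 at 0 h. Those most like Igfbp3 were Rgs5 (r = 0.972), a pericyte regulator of G protein signalling, Fabp4 (0.971), a lipid carrier of endothelium and adipose tissue, Nrk (0.968) and Cav1 (0.961), the coat protein of caveolae. Fabp4 averaged 4.55 in transversely stretched and 6.66 in anisotropic unstretched tissues at 96 h, and 9.19 at 0 h. Rgs5 is 1 of 7 genes in the smooth muscle and pericyte list, which did not fall as a whole. In isotropic unstretched tissues at 24 h against 0 h, 3 of the 7 were higher and 1 lower (median 0.19). Under transverse stretch at 96 h, 2 were higher and 2 lower (median 0.24). H19 and Igfbp3 themselves had r = 0.90. These correlations describe group means that share harvests.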

How the data were processed

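The deposited table holds log2 signals of 51 arrays, 29214 probe sets each, which the authors made with Affymetrix Expression Console and RMA, per the submitters' processing notes; tool versions and the genome build are not given in the sources used here. RMA corrects background, quantile-normalises and summarises probes, which compresses changes of dim genes. The authors' deposited log2 fold changes (limma, per the same notes) were used for 1 check of array labels. Of the probe sets, 20360 carried 1 gene symbol, 8792 none and 62 several; the probe set with the highest mean stood for a gene, 1022 genes having more than 1, which left 18602 genes.

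All arrays entered one limma 3.58.1 fit (R 4.3.3) with a mean per group and a fixed term for harvest (30 residual degrees of freedom). Each of 30 comparisons and 6 F tests was adjusted over all genes by Benjamini-Hochberg at 0.05; the script was tested on simulated data. Arrays of a group came from different harvests. Harvest paired them: deviations from group means correlated at a mean r of 0.219 within a harvest (220 pairs) and -0.0484 between harvests (995 pairs), so harvest was the block. The number of arrays limits the precision, with a median residual SD of 0.119. The named genes were the 10 members, the 4 genes most like H19 and Igfbp3, and up to 4 genes with the largest called change of the pathway and imprinted lists per comparison. Members, lists and tests were chosen with earlier results of these data known. The alternatives were no or a random harvest term, each array minus its harvest's 0 h array, fewer arrays in the fit, a filter on dim genes, 2 other scalings, the mean of a gene's probe sets, another variance moderation, the 2 arrays exchanged or left out, and each array left out in turn. Figures were drawn with matplotlib 3.10.9.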

Additional observations from a re-analysis of the deposited data

How the results depend on the processing

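Of the 71 member calls, 51 held in every alternative run for them and 20 were lost in at least 1. The 71, the 51 and the 53 calls between later times include Igfbp3 calls in stretched tissues. Those are a description, since its values there chose it. The 9 stretch calls became 4 with each array's own 0 h array subtracted, 4 with only the arrays of the compared times and 0 h in the fit, 15 with the 2 arrays exchanged and 16 with both left out, while the share of all genes called rose as well, to 8.13% and 6.44% in isotropic stretch at 24 h. Calls that a member's stretch response differed with layout or time numbered 0, 5 with the 2 arrays exchanged (in Igf1, Igfbp5 and Igfbp6) and 5 with both left out (in Igf1 and Igfbp6). Leaving out each array in turn gave 6 to 11 stretch calls, 0 to 0 for direction, 0 to 1 for layout, 8 to 9 in culture, 50 to 63 between later times (53 with all arrays) and 0 to 4 for differing stretch responses. The pairing is by harvest, since replicate numbers are not shared batches: without the harvest block the stretch calls numbered 10 and 3 of the 71 calls were lost, among them Igf2r under transverse stretch at 96 h; with harvest as a random block none of the 71 was. Signs turned in these values, none of them a call: Igfbp3 under longitudinal stretch at 6 h was 0.06 without the block; Igf1 under isotropic stretch at 24 h was -1.61 to 0.17 over single arrays left out (0.17 without stretched replicate 2); Igf1 at 96 h against 0 h was -0.20 to 1.39 (-0.20 and -0.15 without 96 h isotropic unstretched replicate 2 or 3), and Igfbp2 -0.04 to 0.07 (-0.04 without replicate 2); Igfbp6 between 6 h and 24 h in isotropic stretched tissues was -0.13 with the 2 arrays left out and -0.15 to 0.98 over single arrays left out (-0.15 without 24 h replicate 1); and Igfbp5 between 24 h and 96 h there was -0.98 to 0.04 (0.04 without 24 h replicate 3). The cause was not tested, beyond the fewer arrays in some fits. Igfbp2 alone of the members failed the filter on dim genes.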
